A study of Mus musculus with 20 samples.

Results

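The 10 genes described here encode regulators that hold cells in the epithelial state and oppose the epithelial to mesenchymal transition (EMT), in which epithelial cells lose their junctions and gain migratory traits. They are Elf3, Ehf, Grhl1, Grhl2, Grhl3, Ovol1, Ovol2, Klf5, Esrp1 and Esrp2. They were chosen by name from the 51123 genes of a table of estimated read counts for 20 libraries of sorted mouse skin cells. All 10 had counts in every library, from 4 for Elf3 in the lowest library to 10056 for Ovol1 in the highest. All 10 also passed the default low-count filter in each of the main fits.

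The 20 libraries fell into 7 groups. Young epidermis, from mice aged 100 to 120 days, was wild type (WT young, n = 3), K14cre;Wwoxfl/fl (WKO young, n = 3), K14cre;p53fl/fl (PKO young, n = 3) or K14cre;Wwoxfl/fl;p53fl/fl (DKO young, n = 3). Old WT epidermis (n = 2) came from mice over 400 days old. Spontaneous cutaneous squamous cell carcinomas (cSCC) came from K14cre;p53fl/fl (PKO cSCC, n = 3) and K14cre;Wwoxfl/fl;p53fl/fl mice (DKO cSCC, n = 3), whose ages the labels do not give. In K14cre the keratin 14 promoter drives Cre recombinase in keratinocytes, so the floxed alleles are removed in those cells. All samples are labelled as cells positive for the tdTomato reporter, and the WT labels do not name the Cre transgene. Samples within a group are labelled as biological replicates. The series title relates Wwox loss to carcinoma through EMT, and the comparisons below ask how these regulators differ by genotype, age and tumour state.

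ELF3 and EHF are ETS-family transcription factors of differentiated epithelia. The grainyhead-like factors GRHL1, GRHL2 and GRHL3 activate genes of cell junctions, of the skin barrier and of wound closure. OVOL1 and OVOL2 are zinc finger repressors that hold down the EMT inducers of the ZEB family, and KLF5 is a zinc finger activator of keratinocyte growth and differentiation. ESRP1 and ESRP2 are RNA-binding proteins that select the epithelial exons of transcripts such as Fgfr2, Cd44, Ctnnd1 and Enah. The opposing repressors ZEB1, ZEB2, SNAI1 and SNAI2 bind a class of E-box, CACCTG, in the promoters of epithelial genes.

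Total counts ranged from 11930153 to 17199262 per library. The deleted genes did not follow the labels everywhere: the library labelled DKO young 3 held 7.34 CPM (counts scaled by library size) of Wwox and 21.1 CPM of Trp53, against 0.926 and 0.944 CPM of Wwox and 3.31 and 3.27 CPM of Trp53 in the other DKO young libraries, 1 and 2. Trp53 stood at 45.5 CPM in the library labelled DKO cSCC 3, above that of each WT library, and PKO young 2 and 3 held 21.8 and 19.2 CPM. The libraries also differed in their content of keratinocyte RNA. A keratinocyte index, the geometric mean CPM of 12 keratinocyte genes (Krt5, Krt14, Dsp, Jup, Perp, Pkp1, Trp63, Sfn, Itga6, Itgb4, Cdh1 and Cdh3), was 126 to 239 in WT young, 736 to 886 in WKO young and 844 to 913 in DKO young. In PKO young it was 751, 887 and 245, in old WT 617 and 262, in PKO cSCC 409 to 1071, and in DKO cSCC 743 to 991. The 13 markers of T, NK and dendritic epidermal T cells summed to 2121 to 2941 CPM in WT young, 4301 in PKO young 3, 1141 in WKO young 1 and 20.3 to 879 in the other libraries. WT young also held 829 to 3495 CPM of 5 erythrocyte markers, against at most 220 CPM elsewhere. PKO young 2, PKO young 3 and DKO young 3 held 1784 to 2671 CPM of 6 fibroblast markers, and the other libraries 6.97 to 1549 CPM.

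Because the promoters of some of these genes carry the E-box letters, their sequences are shown for the 2 genes in which a match was found. RefSeq promoters (build GRCm38.p6) were matched for 4 of the 10 genes, as 5 promoters of 250 bases before the transcription start. Elf3 and Grhl3 each held 1 match to CACCTG or its reverse complement CAGGTG, printed in capitals, at position -140 and -19 from the start.
Elf3, minus strand, chr1:135258473-135258722: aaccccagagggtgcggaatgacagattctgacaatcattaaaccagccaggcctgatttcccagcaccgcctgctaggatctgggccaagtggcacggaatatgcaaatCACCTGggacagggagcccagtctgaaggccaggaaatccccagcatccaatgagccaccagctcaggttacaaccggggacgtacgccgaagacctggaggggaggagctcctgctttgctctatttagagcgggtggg
Grhl3, minus strand, chr4:135573633-135573882: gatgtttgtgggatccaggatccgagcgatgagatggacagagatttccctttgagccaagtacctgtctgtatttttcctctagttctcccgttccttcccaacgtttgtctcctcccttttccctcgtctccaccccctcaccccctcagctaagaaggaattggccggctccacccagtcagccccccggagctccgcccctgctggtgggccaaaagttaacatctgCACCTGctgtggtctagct
The promoters of Ovol2 and Grhl1 held no match in this window. The same letters occurred in 17.2% of 32851 promoters of this length, and a grainyhead-like motif, AACNNGTT, in 3.64% of them and in none of the 5. A match describes the sequence and does not show that a factor binds there.

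In young epidermis the mean CPM of each of the 10 factors was higher in all 3 mutant genotypes than in WT, though for Grhl1, Grhl2, Grhl3, Esrp1 and Esrp2 not in every genotype once libraries were scaled to keratinocyte genes, as given further on. Elf3, an ETS factor, was at 0.218, 0.749 and 1.52 CPM in WT young libraries 1 to 3. It was at 15.9, 14 and 19.5 CPM in WKO young, 14.2, 27.1 and 5.17 in PKO young, and 92.9, 117 and 46.2 in DKO young. All 9 mutant libraries exceeded all WT libraries, and all DKO libraries exceeded those of the single mutants. Ehf, its relative, was at 1.20, 6.54 and 16.1 CPM in WT young, 21.0, 42.4 and 36.5 in WKO, 41.3, 34.3 and 20.7 in PKO, and 140, 98.9 and 51.0 in DKO. The order of the groups was that of Elf3, with a wider spread within WT young.

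Ovol1, a zinc finger repressor, reached the highest CPM of the 10 in DKO young. It was at 5.95, 18.0 and 15.8 CPM in WT young and at 151, 81.6 and 124 CPM in WKO young. PKO young libraries held 98.7, 375 and 28.8 CPM, and DKO young libraries held 665, 392 and 453 CPM. Its paralog Ovol2 was low everywhere, at 1.36, 1.29 and 1.52 CPM in WT young, 7.49, 8.14 and 8.70 in WKO, 7.50, 8.41 and 1.91 in PKO, and 7.28, 7.84 and 9.23 in DKO. The WKO and DKO ranges of Ovol2 overlapped, whereas those of Ovol1 did not.

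Of the 3 grainyhead-like genes, Grhl1 and Grhl3 had DKO libraries that all stood above WKO, and Grhl2 did not. Grhl3, known for its role in barrier formation, was at 5.62, 19.3 and 16.1 CPM in WT young, 58.5, 48.2 and 47.5 in WKO, 38.8, 137 and 14.8 in PKO, and 225, 154 and 164 in DKO. Grhl1, an activator of desmosomal cadherin genes, was at 23.4, 62.4 and 57.4 CPM in WT young, 110, 105 and 116 in WKO, 82.3, 157 and 49.6 in PKO, and 233, 218 and 147 in DKO. The lowest DKO library of Grhl1 stood above the highest WKO library by a small margin, 147 against 116 CPM. Grhl2, which controls Cdh1 and claudin genes, was at 11.8, 41.8 and 42.4 CPM in WT young, 83.9, 99.8 and 118 in WKO, 106, 84.0 and 35.1 in PKO, and 94.9, 107 and 73.9 in DKO, so its WKO and DKO ranges overlapped.

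Klf5 was at 34.8, 58.3 and 69.7 CPM in WT young, 298, 335 and 346 in WKO, 253, 431 and 52.0 in PKO, and 574, 434 and 444 in DKO. The splicing factor Esrp1 was at 21.6, 49.8 and 52.0 CPM in WT young, 145, 169 and 178 in WKO, 125, 189 and 54.3 in PKO, and 214, 198 and 174 in DKO. Esrp2 was at 10.9, 33.5 and 34.2 CPM in WT young, 91.8, 102 and 96.6 in WKO, 76.5, 104 and 35.4 in PKO, and 127, 116 and 98.2 in DKO. The WT libraries were the lowest of the 12 for Esrp1 and Esrp2. PKO young 3, the library with 4301 CPM of T cell markers, was the lowest PKO library for all 10 factors.

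**Figure D1:**
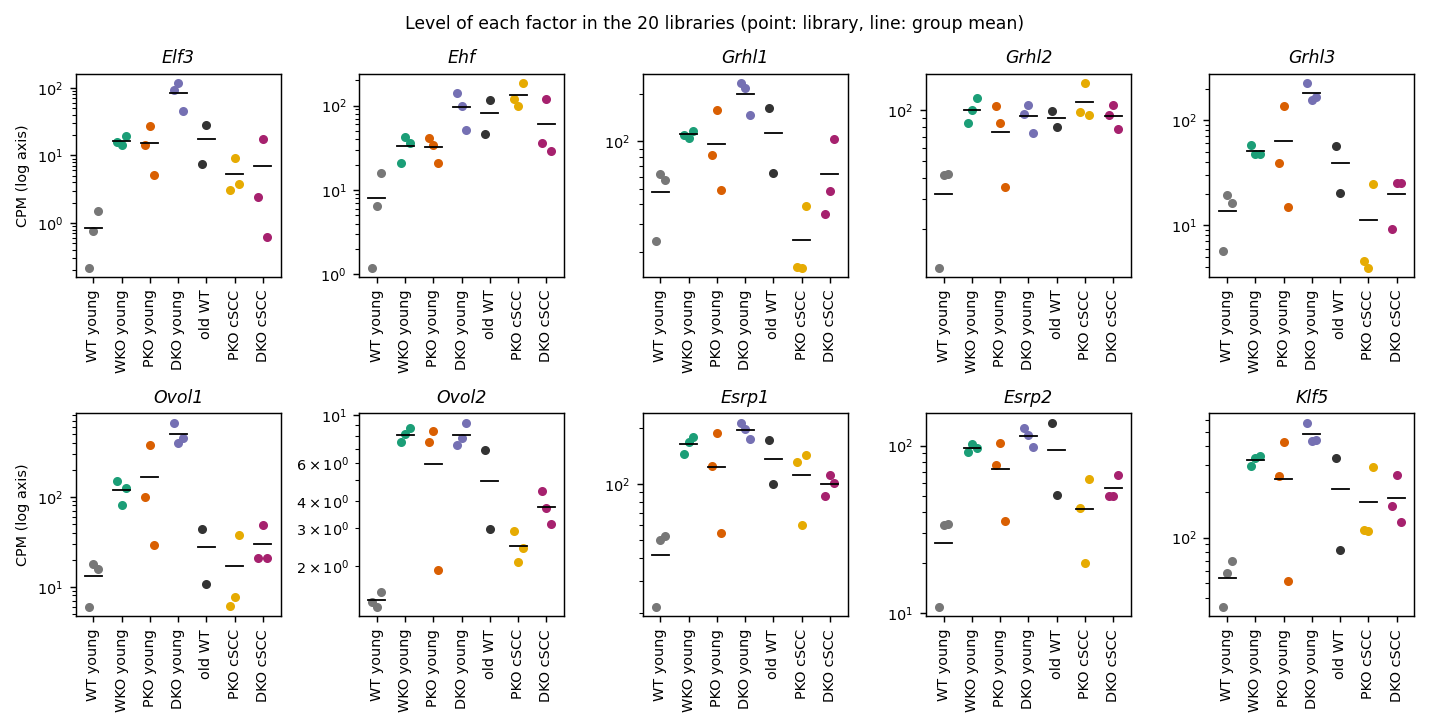
Level of each of the 10 factors (CPM, log axis) in the 20 libraries by group; a point is a library and a line the group mean. Elf3, Ovol1 and Grhl3 peak in DKO young, where Elf3 lies between 46.2 and 117 CPM, whereas Grhl2 lies between 77.7 and 144 CPM in the 6 carcinoma libraries.

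Against WT young, 7 of the 10 factors were higher in WKO young at an adjusted p under 0.05 (edgeR's quasi-likelihood test with Benjamini-Hochberg adjustment over all genes tested), where 13.1% of all genes tested were called higher. Under TMM scaling all 10 had positive log2 fold changes, with a median of 2.03 beside -0.03 over all genes. Elf3 rose from 0.830 ± 0.656 to 16.5 ± 2.77 CPM (SD, n = 3 each), with a fitted log2 difference of 4.29 (SE 0.73, adjusted p = 0.013). Ovol1 rose by 3.16, Klf5 by 2.58 and Ovol2 by 2.53 on the log2 scale. Esrp1 (log2 fold change 1.99), Esrp2 (1.88) and Grhl2 (1.65) were also called higher, but scaled to keratinocyte genes their values turned to -0.07, -0.14 and -0.36. Ehf (2.07), Grhl3 (1.90) and Grhl1 (1.21) did not pass, with adjusted p between 0.063 and 0.068, and Grhl3 and Grhl1 turned to -0.10 and -0.83 under that scaling. In all 10 genes no WKO library overlapped a WT library, which held for 26.2% of all genes tested. The count of 7 fell to 3 without WKO young 2 or WKO young 3 and to 4 without WT young 1 or WT young 2, and Elf3, Ovol2 and Esrp1 were called in each of these fits. Over all genes, in either direction, the count fell from 3563 to 893 without WKO young 2.

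In DKO young all 10 factors rose against WT young under TMM scaling, where 15.8% of all genes were called higher, although Esrp2, Grhl1 and Grhl2 turned to -0.01, -0.10 and -0.59 when scaled to keratinocyte genes. The median log2 fold change was 2.84, against -0.04 over all genes. Elf3 had the largest fitted value, 6.67 (SE 0.79, adjusted p = 0.0061), a rise from 0.830 ± 0.656 to 85.3 ± 36.0 CPM (SD, n = 3 each). Ovol1 rose from 13.2 ± 6.41 to 504 ± 143 CPM, with a fitted log2 difference of 5.24 (SE 0.87, adjusted p = 0.0062). Grhl3 rose by 3.72, Ehf by 3.60, Klf5 by 3.15, Ovol2 by 2.52 and Esrp1 by 2.24. Esrp2 had a value of 2.11, Grhl1 of 2.06 and Grhl2 of 1.52 (adjusted p = 0.040). The ranges of all 10 lay above WT young without overlap, as they did for 23.7% of all genes tested. The call of Grhl2 was lost without DKO young 1, DKO young 2 or any 1 of the WT young libraries, and all 10 calls held without the library labelled DKO young 3.

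In PKO young no factor passed, and 0.00601% of all genes tested, a single gene, were called higher against WT young. Under TMM scaling all 10 had positive values with a median of 2.05, all 10 had an unadjusted p under 0.05, as 15.4% of all genes did with a positive value, and DESeq2 called 8, beside 9.23% of all genes called higher by it. The smallest adjusted p was 0.054, shared by Elf3 (log2 fold change 4.20, SE 0.73), Ovol1 (3.66, SE 0.81) and Ovol2 (2.08, SE 0.45), with edgeR's quasi-likelihood test. Without PKO young 3, the count rose from 0 to 9, and that over all genes, in either direction, from 1 to 2998. The 3 young libraries high in Trp53 for their label are PKO young 2, PKO young 3 and DKO young 3. A fit without them leaves PKO young a single library, assumed to vary like the other groups. The WKO, PKO and DKO comparisons share the same WT libraries, so their values are not independent.

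These differences depended on how the libraries were scaled, and the part of T cell RNA in them was not tested. In bulk samples a lower share of keratinocytes and less RNA of a gene per keratinocyte cannot be told apart. Scaling the libraries to the 12 keratinocyte genes in place of TMM moved the median of all genes from -0.03 to -2.22 in WKO against WT young, from -0.01 to -1.34 in PKO, and from -0.04 to -2.33 in DKO. All genes called higher and lower changed from 2177 and 1386 to 114 and 13512 in WKO, from 1 and 0 to 5 and 303 in PKO, and from 2623 and 2006 to 206 and 13638 in DKO. With this scaling Elf3 alone of the 10 passed in WKO (log2 fold change 2.33, SE 0.53, adjusted p = 0.0044, edgeR), where 0.686% of all genes were called higher, and the median of the 10 was 0.04. Elf3 was also the only one called in PKO (2.57, adjusted p = 0.045, edgeR; 0.0301% of all genes called higher). In DKO, 5 of the 10 passed beside 1.24% of all genes: Elf3 (4.58), Ovol1 (3.11), Grhl3 (1.59), Ehf (1.58) and Klf5 (0.96). Under keratinocyte scaling 5 of the 10 had positive values in WKO, 6 in PKO and 7 in DKO. The negative values in PKO were those of Grhl1 (-0.55), Grhl2 (-0.30), Esrp2 (-0.08) and Esrp1 (-0.05).

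**Figure D2:**
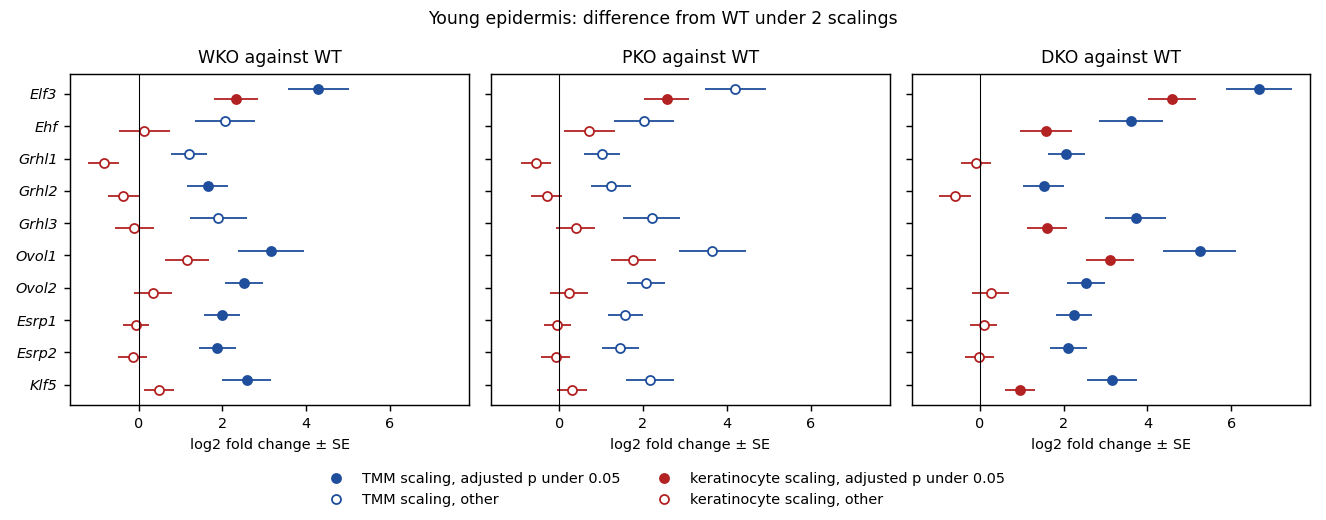
Log2 fold change ± SE of each factor against WT young in WKO, PKO and DKO young epidermis, with TMM scaling (blue) and with scaling to 12 keratinocyte genes (red); filled points have an adjusted p under 0.05. Under keratinocyte scaling Elf3 stays above 0 in all 3 panels, at 2.33, 2.57 and 4.58, whereas Esrp1 and Esrp2 lie between -0.14 and 0.09.

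Set against the keratinocyte index within each library, some factors overlapped across the young groups and others did not. Esrp1 stood at 17.1% to 23.2% of the index in WT young, 19.5% to 20.1% in WKO, 16.7% to 22.2% in PKO and 20.7% to 23.5% in DKO young. Esrp2 stood at 8.63% to 15.6%, 10.9% to 12.5%, 10.2% to 14.5% and 11.6% to 13.9% in the same order. The WT range of both splicing factors overlapped that of each mutant, while Esrp1 in DKO lay just above WKO, at 20.7% against 20.1%. Elf3 stood at 0.173% to 0.639% of the index in WT young, 1.62% to 2.20% in WKO, 1.89% to 3.05% in PKO and 5.47% to 12.9% in DKO. Ovol1 stood at 4.71% to 8.38% in WT young, 9.41% to 20.5% in WKO, 11.8% to 42.2% in PKO and 43.1% to 72.9% in DKO. For Elf3 and Ovol1, the DKO libraries were above all other young libraries on this ratio as well. Grhl3 took 4.45% to 9.01% in WT young and 17% to 24.6% in DKO, and Klf5 took 27.2% to 29.2% and 47.7% to 62.9%, without overlap between WT and DKO young. Differentiated keratinocyte markers (12 genes, such as Krt1, Krt10, Lor and Flg) summed to 515 to 1175 CPM in WT young, 7462 to 9767 in WKO and 10849 to 15763 in DKO, and their part in these values was not tested.

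**Figure D3:**
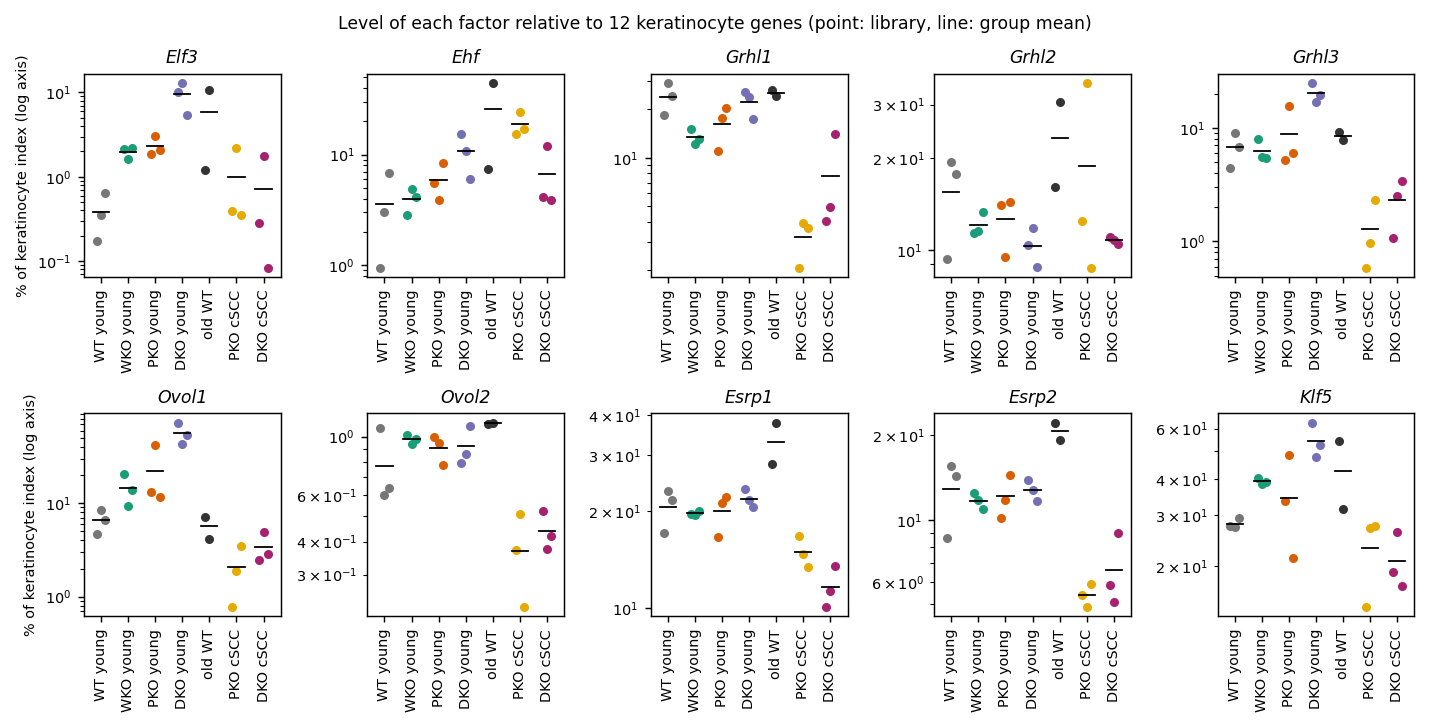
Level of each factor as a percentage of the keratinocyte index (log axis) in the 20 libraries; a point is a library and a line the group mean. Esrp1 lies between 16.7% and 23.5% in the 12 young libraries, and Ovol1 reaches 43.1% to 72.9% in DKO young and 0.774% to 4.89% in the 6 carcinomas.

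Between mutants of young epidermis no factor passed, in comparisons added after the values were seen. In DKO against WKO young, which asks what p53 loss adds to Wwox loss, 3 of the 10 had an unadjusted p under 0.05 (7.57% of all genes did with a positive value) and DESeq2 called Elf3 alone (2.8% of all genes higher); edgeR called 0.00601% of all genes higher. Without the 3 young libraries high in Trp53 for their label, Elf3 was called. Elf3 had a log2 fold change of 2.37 (SE 0.63), Ovol1 of 2.08 (SE 0.75) and Grhl3 of 1.82 (SE 0.67), with adjusted p from 0.17 to 0.29 in edgeR's quasi-likelihood test. The DKO libraries lay above the WKO libraries without overlap for 6 of the 10 (Elf3, Ehf, Grhl1, Grhl3, Ovol1 and Klf5), which was the case for 12% of all genes tested. In DKO against PKO young the median of the 10 was 1.01 with TMM scaling, 4 had an unadjusted p under 0.05 (7.78% of all genes did with a positive value), and DESeq2 called Elf3 alone, beside 0.95% of all genes higher. Elf3 had a log2 fold change of 2.47 (SE 0.63), Ehf of 1.59 (SE 0.70) and Grhl1 of 1.05 (SE 0.43), with adjusted p from 0.27 to 0.30 in edgeR's test. The percentage of all genes called higher there was 0. Without PKO young 2 the count rose from 0 to 3 (Elf3, Ovol1 and Grhl3), and that over all genes, in either direction, from 0 to 403.

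Old WT epidermis, with 2 libraries, was set against WT young to ask how the factors differ with age. Elf3 stood at 7.39 and 28.0 CPM, Ehf at 45.7 and 116, Grhl2 at 99.2 and 80.0, and Klf5 at 335 and 82.6. Esrp1 was at 174 and 99.4 CPM, Esrp2 at 137 and 50.5, Grhl1 at 162 and 63.4, Grhl3 at 57.1 and 20.4, and Ovol2 at 6.90 and 2.96. Ovol1, at 44.3 and 10.8 CPM, overlapped WT young and turned from 1.08 to -0.22 under keratinocyte scaling; the other 9 lay above WT young in both libraries, as 19.2% of all genes did. Elf3 alone passed (log2 fold change 4.42, SE 0.82, adjusted p = 0.033, edgeR), where 1.73% of all genes were called higher; under keratinocyte scaling its value was 3.90 and no factor passed. Ehf (3.36, adjusted p = 0.053) and Esrp1 (1.75, adjusted p = 0.063) had the next smallest p in edgeR's test. The Elf3 call was lost without old WT 2 or without any 1 of the WT young libraries, and Ehf was called as well without old WT 1. Without the 3 young libraries high in Trp53 for their label, which are in neither group but share the fit, Elf3, Ovol2 and Esrp1 were called. The keratinocyte index was 126 to 239 in WT young and 617 and 262 in old WT, and its part in these values was not tested.

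In carcinomas Ovol1 and Grhl1 fell in PKO and Ovol1, Grhl3 and Elf3 fell in DKO cSCC against young epidermis of the same genotype, whereas Grhl2 passed in neither. None of these factors passed against old WT with edgeR's quasi-likelihood test. Mean CPM of Ovol1 was 17.1 in PKO and 30.1 in DKO cSCC, against 27.6 in old WT and 13.2 in WT young. In DKO cSCC Elf3 averaged 6.90 CPM and Grhl3 19.8, against 17.7 and 38.8 in old WT and 0.830 and 13.7 in WT young. Grhl1 averaged 23.7 CPM in PKO cSCC, 113 in old WT and 47.7 in WT young. The carcinoma ages are not given, so tumour state and age cannot be told apart against young epidermis. Ovol1 was at 6.06, 7.77 and 37.3 CPM in PKO cSCC and at 20.9, 48.5 and 21.1 in DKO cSCC. The DKO carcinomas lay below DKO young (392 to 665 CPM), and the PKO carcinomas overlapped PKO young (28.8 to 375 CPM). Grhl3 was at 4.60, 3.95 and 24.9 CPM in PKO cSCC and at 9.18, 25.0 and 25.4 in DKO cSCC. The DKO carcinomas were below the lowest DKO young library, at 154 CPM, while the PKO carcinomas overlapped PKO young (14.8 to 137 CPM). Elf3 was at 3.07, 9.11 and 3.75 CPM in PKO cSCC and at 2.44, 17.6 and 0.625 in DKO cSCC. Grhl1 was at 16.2, 16 and 38.9 CPM in PKO cSCC and at 34.7, 48.6 and 104 in DKO cSCC. In PKO cSCC each library was below the lowest PKO young library for Grhl1, at 49.6 CPM.

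In the main edgeR fit the other 6 factors were called in neither comparison with young epidermis. DESeq2 called Ehf and Ovol2 in PKO cSCC, where it called 3440 genes in either direction, and edgeR without the low-count filter also called Ehf there. With only the compared groups in the fit, edgeR called Klf5, Esrp1 and Esrp2 in DKO cSCC. The count over all genes in that run is not given here. Grhl2 was at 97.7, 144 and 93.7 CPM in PKO cSCC and at 94.1, 107 and 77.7 in DKO cSCC, against 73.9 to 107 in DKO young. Ehf was at 120, 98.6 and 184 CPM in PKO cSCC, all above the 20.7 to 41.3 CPM of PKO young, and at 35.6, 119 and 28.8 in DKO cSCC, within or below the DKO young range. Ehf in PKO cSCC thus stood opposite in direction to the other ETS factor, Elf3, without passing the main edgeR test. Klf5 was at 113, 111 and 294 CPM in PKO cSCC and at 162, 259 and 127 in DKO cSCC. Esrp1 was at 131, 60.2 and 144 CPM in PKO cSCC and at 85.9, 112 and 101 in DKO cSCC, and Esrp2 at 42.3, 20.02 and 63.5 and at 49.8, 50.4 and 66.9. Ovol2 was at 2.92, 2.09 and 2.42 CPM in PKO cSCC and at 4.44, 3.71 and 3.12 in DKO cSCC. For Klf5, Esrp1, Esrp2 and Ovol2 every DKO cSCC library was below every DKO young library.

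Against DKO young, 3 of the 10 factors were lower in DKO cSCC, where 4.03% of all genes tested were called lower. Ovol1 fell from 504 ± 143 to 30.1 ± 15.9 CPM (SD, n = 3 each), the log2 fold change being -4.06 (SE 0.92, adjusted p = 0.016, edgeR). Grhl3 fell from 181 ± 38.1 to 19.8 ± 9.23 CPM, with a fitted log2 difference of -3.19 (SE 0.82, adjusted p = 0.029, edgeR). Elf3 fell from 85.3 ± 36.0 to 6.90 ± 9.34 CPM, with a fitted log2 difference of -3.62 (SE 0.98, adjusted p = 0.036, edgeR). The median of the 10 was -1.26 beside 0.05 over all genes, and 8 of the 10 had all DKO cSCC libraries below all DKO young libraries, as 16% of all genes did. With keratinocyte scaling, under which 0.325% of all genes were called lower, Ovol1 (-4.06) and Grhl3 (-3.12) passed and Elf3 (-3.72, adjusted p = 0.10) did not. All genes called higher and lower went from 594 and 732 to 25 and 59. No factor was called without DKO cSCC 1 or without DKO young 1, Ovol1 alone without DKO young 2, and without DKO cSCC 2 Grhl3 was lost. Without the library labelled DKO cSCC 3, which held 14526 CPM of differentiated keratinocyte markers against 716 and 2924 in the other 2, Grhl1, Ovol1 and Grhl3 were called and Elf3 was not; without that library and DKO young 3 together, Grhl1 alone was called, and without PKO young 2 and 3 as well, Grhl1, Ovol1, Grhl3 and Elf3 were.

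In PKO cSCC against PKO young 2 of the 10 factors were lower, beside 6.16% of all genes. Grhl1 fell from 96.4 ± 55.3 to 23.7 ± 13.2 CPM (SD, n = 3 each), with a fitted log2 difference of -2.02 (SE 0.54, adjusted p = 0.026, edgeR). Ovol1 fell from 167 ± 183 to 17.1 ± 17.6 CPM, with a fitted log2 difference of -3.29 (SE 0.89, adjusted p = 0.027, edgeR), and its libraries overlapped. Grhl3, with a log2 fold change of -2.50 (adjusted p = 0.055), passed under keratinocyte scaling (-2.77, adjusted p = 0.016, edgeR), where 2.87% of all genes were called lower and all genes called higher and lower went from 969 and 1118 to 52 and 522. That scaling moved the median of all genes from -0.02 to -0.48. Grhl1 alone had PKO cSCC libraries wholly below PKO young, as 12.3% of all genes did. No factor was called without PKO cSCC 1, PKO cSCC 2 or PKO young 2; 3 were without PKO cSCC 3 and 4 without PKO young 3. None was called without the 4 libraries high in Trp53 for their label (the 3 young ones and DKO cSCC 3), which leaves PKO young 1 alone in its group. Differentiated keratinocyte markers summed to 267 to 2436 CPM in PKO cSCC against 1167 to 12168 in PKO young, and basal keratinocyte markers to 9530 to 29434 against 3036 to 16254. The part of these shifts in the results was not tested.

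**Figure D4:**
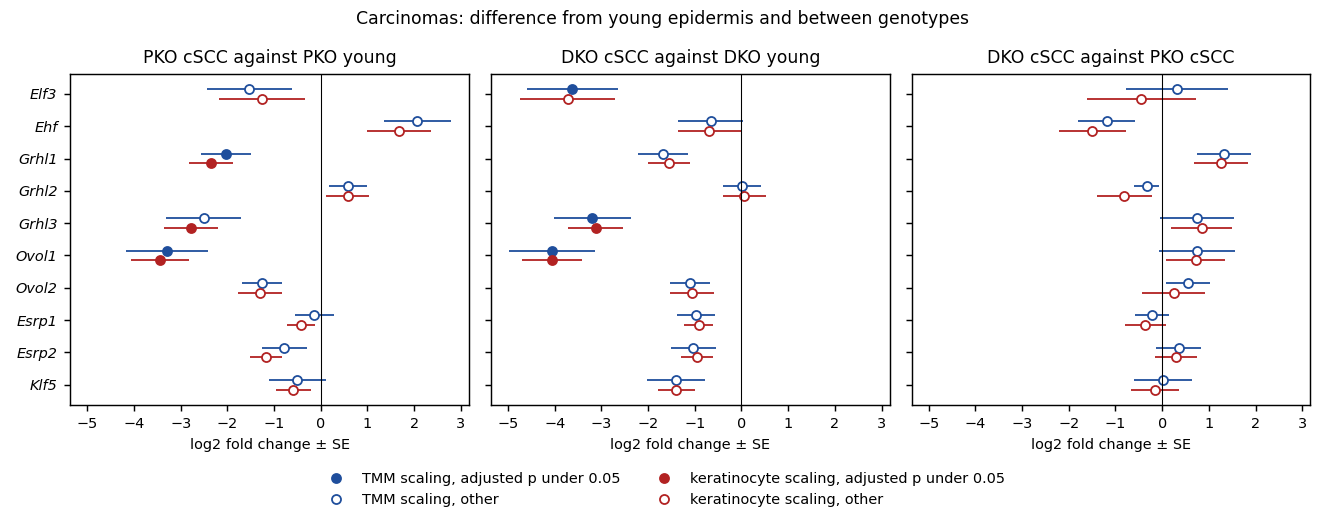
Log2 fold change ± SE of each factor in carcinomas against young epidermis of the same genotype and in DKO against PKO cSCC, with TMM scaling (blue) and keratinocyte scaling (red); filled points have an adjusted p under 0.05. Ovol1 is filled in both comparisons with young epidermis, at -3.29 and -4.06 with TMM scaling, Grhl2 lies at 0.58 and 0.01, and no point is filled between the carcinomas.

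As a share of the keratinocyte index, Grhl3 and Ovol2 were lower in each of the 6 carcinomas than in each of the 14 epidermis libraries of any genotype or age, as 1.37% of all genes were. Grhl3 took 0.587% to 3.41% of the index in carcinomas and 4.45% to 24.6% in epidermis. Ovol2 took 0.226% to 0.520% against 0.603% to 1.13%. Esrp1 and Esrp2 nearly separated, at 10.1% to 16.7% against 16.7% to 37.9% and at 4.89% to 8.99% against 8.63% to 22.2%. Grhl2 did not, at 8.75% to 35.2% against 8.76% to 30.5%. In CPM neither Grhl3 nor Ovol2 separated. Grhl3 was at 3.95 to 25.4 CPM in carcinomas and 5.62 to 225 in epidermis, and Ovol2 at 2.09 to 4.44 and 1.29 to 9.23. For Ovol2 every carcinoma was above the WT young libraries, at 1.29 to 1.52 CPM. These ranges were computed after the values were seen and carry no test.

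The 2 carcinoma genotypes were compared to ask whether Wwox loss changes these factors in tumours labelled as p53-deleted. The library labelled DKO cSCC 3 held 45.5 CPM of Trp53, and without it no factor was called either. In DKO against PKO cSCC none of the 10 passed edgeR's quasi-likelihood test, none had an unadjusted p under 0.05, and DESeq2 called none; 0.00605% of all genes were called in either direction. Grhl1 had the smallest p, at 62.4 ± 36.6 against 23.7 ± 13.2 CPM (SD, n = 3 each) and a fitted log2 difference of 1.32 (SE 0.57, adjusted p = 0.62, edgeR). Its highest level in a carcinoma was in DKO cSCC 3 (104 CPM), and with single libraries left out its value ranged from 0.77 to 1.90. Ehf, at 61.2 ± 50.3 against 134 ± 44.3 CPM, had a value of -1.19 (SE 0.61) and Grhl2 one of -0.33 (SE 0.27). Ovol2 alone had DKO libraries above all PKO libraries, as 7.46% of all genes did. The change from young epidermis to carcinoma was also compared between genotypes, after the values were seen: no factor passed the test of that difference, 1 had an unadjusted p under 0.05 (Ehf, -2.73, SE 0.999, adjusted p = 0.28, edgeR), Elf3 (-2.09, SE 1.27) and Esrp1 (-0.84, SE 0.58) came next, DESeq2 called none, and the percentage of all genes called was 0.

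Set against old WT epidermis, no factor passed in either carcinoma group with edgeR's quasi-likelihood test. In PKO cSCC 1 of the 10, Grhl1, had an unadjusted p under 0.05 (log2 fold change -2.17, SE 0.63, adjusted p = 0.092), and DESeq2 called it alone, where it called 18.3% of all genes; with edgeR 0.0121% of all genes were called in either direction. Grhl3 had a value of -1.72 (SE 0.87) and Esrp2 one of -1.10 (SE 0.54). In DKO cSCC none had an unadjusted p under 0.05, DESeq2 called none, and the values ran from -1.32 to 0.14, with the smallest p for Esrp2 (-0.74, SE 0.54), Grhl1 (-0.85, SE 0.62) and Grhl3 (-0.97, SE 0.87); the percentage of all genes called was 0. Old WT 2 held 262 CPM of the keratinocyte index against 617 in old WT 1, and without old WT 1 the median of the 10 was 0.07 for PKO cSCC and 0.13 for DKO cSCC.

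Among 26 epithelial target genes of these factors, with edgeR and TMM scaling against WT young, 18 rose in WKO young, 21 in DKO young and 4 in old WT, while under keratinocyte scaling 0, 1 and 0 rose and 7, 5 and 0 fell. Under that scaling 81.3% of all genes were called lower in WKO and 82% in DKO young, so the 7 and 5 of 26 are smaller shares than those over all genes. With TMM scaling 13.1% of all genes were called higher in WKO young, 15.8% in DKO young and 1.73% in old WT. In PKO young 0 were called, 22 had an unadjusted p under 0.05 with a positive value, and DESeq2 called 18 higher. Of all genes 15.4% had such a p with a positive value, and DESeq2 called 9.23% higher. Cdh1, which encodes E-cadherin, stood at 273 ± 23.2 CPM in WT young and 772 ± 37.9 in DKO young (SD, n = 3 each; log2 fold change 1.49, but -0.78 under keratinocyte scaling). The median of all genes under keratinocyte scaling was -2.33 in DKO young. In PKO cSCC against PKO young 1 rose and 5 fell, under either scaling. Of 18164 genes, 969 rose and 1118 fell there with TMM scaling, and 52 and 522 with keratinocyte scaling. In DKO cSCC against DKO young 1 rose and 4 fell, against 0 and 1 under keratinocyte scaling. All genes called higher and lower there were 594 and 732, against 25 and 59 under keratinocyte scaling. The tight junction gene Cldn4 fell from 367 ± 76.5 to 9.07 ± 2.42 CPM in DKO cSCC (log2 fold change -5.34, SE 0.99, adjusted p = 0.0077, edgeR) and dropped by 6.73 on the log2 scale in PKO cSCC, and both calls held under keratinocyte scaling (-5.31 and -6.25). Marveld2, which encodes tricellulin, fell by 1.98 on the log2 scale in DKO cSCC and dropped by 3.23 in PKO cSCC. Cdh1 fell to 324 ± 134 CPM in DKO cSCC (log2 fold change -1.25), while Cdh3, which encodes P-cadherin, rose from 65.3 ± 6.72 to 213 ± 125 CPM (1.70). In DKO cSCC the calls of Marveld2, Cdh1 and Cdh3 were lost under keratinocyte scaling (-1.87, -1.15 and 1.71). Cdh1, Cdh3 and Dsp are also among the 12 genes of the keratinocyte index.

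Of 18164 genes tested, 969 were called higher in PKO cSCC and 594 in DKO cSCC against young epidermis with TMM scaling. Among 8 repressors opposed to the epithelial state, 1 rose in each of these comparisons. It was Snai2, at 50.9 ± 21.2 against 18.9 ± 2.36 CPM in DKO (log2 fold change 1.43, adjusted p = 0.043, edgeR) and at 61.8 ± 10.6 against 17.9 ± 8.42 CPM in PKO (1.79, adjusted p = 0.014, edgeR; SD, n = 3 each). Under keratinocyte scaling its values were 1.46 and 1.47, with adjusted p of 0.15 and 0.073 in edgeR's test. Zeb1 stood at 40.5 ± 6.28 CPM in WT young and 8.60 ± 10.1 in WKO young, and Zeb2 at 133 ± 106 and 9.89 ± 12.5, without passing under TMM scaling. In carcinomas Zeb1 was at 1.02, 17.3 and 0.403 CPM in PKO cSCC and at 2.37, 5.95 and 15.2 in DKO cSCC. PKO cSCC 2, with the highest Zeb1 of the 6, had the lowest Esrp1 (60.2 CPM), the lowest Esrp2 (20.02) and the highest Grhl2 (144), beside the lowest keratinocyte index of the 6 (409 CPM) and the highest sum of 6 fibroblast markers (894 CPM, against 26.7 to 815). As a share of the index its Esrp2 (4.89%) was still the lowest of the 6 and its Grhl2 (35.2%) the highest. Its Esrp1 (14.7%) was not the lowest on this share, DKO cSCC 1 being at 10.1%. The part of other cell types in these values was not tested. In WKO young Snai2 rose by 1.19 and Tcf4 fell by 0.90 on the log2 scale, where 2177 of 16627 genes rose and 1386 fell. Under keratinocyte scaling both were negative (-0.93 and -3.19), beside a median of -2.22 over all genes.

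Other epidermal transcription factors were called in the same comparisons: 8 of 13 measured rose in WKO young and 11 of 13 in DKO young against WT young with edgeR and TMM scaling, while under keratinocyte scaling 0 and 1 rose and 4 and 2 fell. The shares of all genes called higher with TMM scaling were 13.1% and 15.8%, and those called lower under keratinocyte scaling 81.3% and 82%. Klf4, a factor of the differentiating layers, rose from 119 ± 32.1 CPM in WT young to 816 ± 91.2 in DKO young (SD, n = 3 each; log2 fold change 2.77, and 0.38 under keratinocyte scaling). It fell to 169 ± 14.6 CPM in DKO cSCC (log2 fold change -2.27, and -2.22 under keratinocyte scaling). In PKO cSCC against PKO young 1 of 15 rose and 5 fell, among them Zfp750, Gata3, Klf4 and Cebpa. In DKO cSCC 6 of 15 fell, among them Klf4, Gata3 and Cebpb. Under keratinocyte scaling 0 rose and 5 fell in PKO cSCC and 4 fell in DKO cSCC, and the call of Cebpb was lost (-1.23). Of 9 other splicing factors of the epithelial and mesenchymal exon choice, Rbfox2 and Mbnl2 rose in DKO young by 1.02 and 0.85 on the log2 scale. Both were negative under keratinocyte scaling (-1.27 and -1.48), though above the median of -2.33 over all genes. Mbnl1 fell by 0.95 in DKO young and by 0.91 in WKO young. With TMM scaling 15.8% of all genes were called higher in DKO young, and 2006 of 16627 in DKO and 1386 in WKO were called lower. In carcinomas Rbfox2 rose by 0.87 in PKO and Mbnl2 fell by 0.86 in DKO, and neither passed under keratinocyte scaling. Of 18164 genes, 969 rose and 1118 fell in PKO cSCC, and 594 and 732 in DKO cSCC, with TMM scaling.

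Of 11 genes with exons that ESRP1 and ESRP2 regulate, gene totals could be read but exon choice could not, since the counts are per gene. In DKO young 4 were called higher than in WT young (Ctnnd1, Slk, Magi1 and Scrib) and in WKO young 2 were (Fgfr2 and Ctnnd1), whereas all of these had negative values under keratinocyte scaling, from -0.50 to -1.43, beside medians over all genes of -2.22 in WKO and -2.33 in DKO. Of all genes 15.8% and 13.1% were called higher in DKO and WKO with TMM scaling. Enah, which encodes an actin regulator, rose in DKO cSCC from 39.5 ± 9.03 to 157 ± 26.8 CPM against DKO young (log2 fold change 1.99, SE 0.29, adjusted p = 0.0028, edgeR). In PKO cSCC it rose from 33.2 ± 11.7 to 145 ± 44.6 CPM (2.13, SE 0.29, adjusted p = 0.0018, edgeR; SD, n = 3 each). Under keratinocyte scaling its values were 2.05 and 1.58, with adjusted p of 0.058 and 0.063 in edgeR's test. Nf2 also rose in PKO cSCC (log2 fold change 0.75), and Slk fell in DKO cSCC (-1.07), but neither passed under keratinocyte scaling (0.11 and -1.01). With TMM scaling all genes called higher and lower were 969 and 1118 in PKO cSCC, and 594 and 732 in DKO cSCC, of 18164.

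Per kilobase of merged exons, mean levels in DKO young ran in the order Ovol1 (144 CPM per kilobase), Klf5 (93.0), Grhl3 (65.0), Elf3 (38.5), Grhl1 (36.0), Esrp1 (31.0), Esrp2 (26.2), Ehf (17.4), Grhl2 (10.7) and Ovol2 (3.84). In DKO cSCC Klf5 led (35.1 CPM per kilobase), followed by Esrp1 (15.8), Esrp2 (12.8), Grhl1 (11.3), Ehf (10.97) and Grhl2 (10.8), and Ovol1 stood at 8.64. Over the 20 libraries Elf3 ranged 536-fold in CPM, Ehf 153-fold, Ovol1 112-fold and Grhl3 57.0-fold. Ovol2 ranged 7.14-fold and Esrp1 9.91-fold. Among neighbours in DKO cSCC, Esrp1 was above Esrp2 in each library, with SDs of 2.10 and 2.23 CPM per kilobase, though their ranges overlapped. Grhl1 (SD 6.60), Ehf (9.02) and Grhl2 (1.70) lay within the spread of Esrp2 and of each other in CPM per kilobase.

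The likeness of patterns was described by Spearman's rho over the 20 libraries, which share depth, group and keratinocyte content, among 14767 genes. Over the 45 pairs of the 10 factors rho ran from 0.08 (Ehf and Grhl1) to 0.96 (Esrp1 and Klf5), with a median of 0.75. The gene most like Grhl1 was Nectin4 (0.98), with the desmosomal cadherin Dsg1a (0.98) next. The desmosomal cadherin Dsc3 was most like Klf5 (0.98), Inava most like Esrp1 (0.99) and Tyro3 most like Esrp2 (0.98). Fam25c was most like Grhl3 (0.98), Accsl most like Ovol1 (0.95), and Ppp1r13l most like Ovol2 (0.92). Looser matches were Vps50 for Ehf (0.89), Pla2g4a for Elf3 (0.88) and Cask for Grhl2 (0.82). With the keratinocyte index itself rho was 0.78 for Klf5, 0.74 for Esrp1 and 0.33 for Grhl1, the highest, the next and the lowest of the 10.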

How the data were processed

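RNA of tdTomato-positive mouse skin cells was sequenced in 20 libraries, each prepared per the labels' protocols from 5 ng of total RNA by a low-input, strand-specific method. The authors deposited estimated counts, already whole numbers, for 51123 genes in 1 table. The submitters' processing notes list Salmon 0.13.1, DESeq2 1.28.1, FastQC 0.11.5, Trim Galore 0.4.1 and the build mm39, without a role or order. How transcripts were summed to genes, whether molecular identifiers were used, and whether counting used strand are not given in the sources used here. Symbols, chromosomes and exon lengths came from GENCODE vM21 (GRCm38), used for names and lengths only; 48246 identifiers matched. Promoter letters came from RefSeq (GRCm38.p6). No protein sequence or mm39 genome was used here.

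Counts were tested with edgeR 4.0.16 (R 4.3.3, limma 3.58.1): TMM scaling (trimmed mean of M-values), the default filterByExpr filter, the quasi-likelihood F test and Benjamini-Hochberg adjustment over all genes tested, called under 0.05. Young groups shared a fit of 12 libraries (16627 genes), carcinomas and old WT one of 8 (16526 genes), old against young WT one of 14 (17622 genes), and carcinomas against young epidermis one of 20 (18164 genes). CPM used TMM over all 20 libraries. Keratinocyte scaling set the factors from the geometric mean of 12 keratinocyte genes. Alternatives were that scaling, relative log expression (RLE), a minimum of 10 CPM, no filter on low counts, DESeq2 1.42.0, other sets of libraries in the fit, the replicate number as a block, each library left out, and the libraries high in Trp53 for their label left out. The edgeR step was tested on simulated data.

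The 10 genes and the other lists were chosen with earlier results of these data known, so they give no independent support. Of 12 comparisons, 3 were added after the values were seen. Every factor is given by library; fold changes are printed for those called and, where fewer than 3 were, for the 3 with the smallest p; other lists are given by counts and up to 4 genes with the smallest p, with a few named beyond that after their values were seen. P-values set a difference between groups against the spread between these libraries, estimated over all groups in the fit and moderated across genes.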

Additional observations from a re-analysis of the deposited data

How the results depend on the processing

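The fold changes of the factors in young mutants were most sensitive to scaling, and the counts of factors called to single libraries and to the tool. Under keratinocyte scaling, which also moves the median of all genes, the median log2 fold change of the 10 was 0.036 in WKO, 0.27 in PKO and 0.61 in DKO against WT young, 0.60 in old against young WT, and -1.53 in PKO and -1.57 in DKO cSCC against old WT. The median of all genes under that scaling was -1.06 in old against young WT, and -0.82 in PKO and -1.20 in DKO cSCC against old WT. The factors called became 1 in WKO, 1 in PKO, 5 in DKO young and 0 in old WT. Turned in sign were Esrp1 (-0.065), Esrp2 (-0.14), Grhl2 (-0.36), Grhl3 (-0.10) and Grhl1 (-0.83) in WKO, Esrp1 (-0.046), Esrp2 (-0.084), Grhl2 (-0.30) and Grhl1 (-0.55) in PKO, Esrp2 (-0.011), Grhl1 (-0.098) and Grhl2 (-0.59) in DKO young, and Ovol1 (-0.22) in old WT. DESeq2 called 8 in PKO against WT young, 7 in old against young WT, 5 in PKO cSCC against PKO young, and 1 each in PKO cSCC against old WT, DKO against WKO young and DKO against PKO young. Over all genes, in either direction, DESeq2 called 2327, 2186, 3440, 3031, 596 and 328 in the same order. Without the low-count filter the counts were 7 in PKO against WT young, 6 in old against young WT, 4 in PKO cSCC against PKO young and 1 in PKO cSCC against old WT. A minimum of 10 CPM gave 2 in PKO against WT young and 2 in old against young WT. In these comparisons the counts over all genes without the filter and with that minimum are not given here. With all 20 libraries in the fit, 1 was called in PKO cSCC against old WT, beside 3876 over all genes, and 0 in old against young WT. With only the compared groups in the fit, 0 were called in PKO cSCC against young epidermis, beside 7 over all genes, and 5 in DKO cSCC. Without DKO young 3 and DKO cSCC 3 together, 1 was called in DKO cSCC against DKO young. Without these and PKO young 2 and 3, which also hold high Trp53 for their label (chosen after seeing the data), the counts were 4 in PKO against WT young, 3 in old against young WT, 0 in PKO cSCC against PKO young and 1 in DKO against WKO young. No other alternative run moved a count of factors called by over 1.5 times, apart from single libraries left out and the replicate block.

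Leaving out each library in turn, the factors called ranged from 3 to 7 in WKO, 0 to 9 in PKO and 9 to 10 in DKO against WT young, 0 to 2 in old against young WT, 0 to 4 in PKO and 0 to 3 in DKO cSCC against young epidermis, and 0 to 3 in DKO against PKO young. Over all genes the counts ranged, in the same order, from 893 to 3513, 1 to 2998, 1609 to 4045, 0 to 434, 1144 to 2041, 265 to 1800 and 0 to 403. The median of the 10 ranged from 1.02 to 2.20 in old against young WT, -1.18 to 0.071 in PKO and -0.82 to 0.13 in DKO cSCC against old WT, -1.56 to -1.19 in DKO cSCC against DKO young, and -1.43 to -0.070 in the difference of cSCC and young between genotypes. In DKO cSCC against old WT, Esrp2 ranged from -1.28 to 0.20, Grhl1 from -1.42 to 0.024 and Grhl3 from -1.51 to 0.0068.

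With the replicate number as a block, 0 factors were called in old against young WT, where the main count was 1, and 1 in PKO cSCC against PKO young, where it was 2. In the other comparisons the block moved no count of factors called by over 1.5 times. Correlations of the deviations of same-numbered libraries ran from -0.37 to 0.41, and in no comparison of 3 pairs were all over 0.1, so the numbers were not taken to pair the libraries.

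Counts over all genes moved more than those of the factors. The main count and the lowest and highest over all alternatives were 3563, 893 and 13626 in WKO, 1, 1 and 2998 in PKO, and 4629, 1609 and 13844 in DKO against WT young; 351, 0 and 2186 in old against young WT; 2087, 7 and 3440 in PKO and 1326, 84 and 2716 in DKO cSCC against young epidermis; 1, 0 and 375 between carcinomas; 2, 0 and 3876 in PKO and 0, 0 and 853 in DKO cSCC against old WT; 1, 0 and 596 in DKO against WKO young; 0, 0 and 403 in DKO against PKO young; and 0, 0 and 480 for the difference between genotypes. The causes were not tested. Depth limits Ovol2 and, in WT young, Elf3 most, with as few as 19 and 4 counts in a library.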
